A study of Mus musculus with 4 samples.

Results

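The genes of the MHC class II antigen presentation pathway were followed across the cell classes of mouse inguinal fat. They are 10 of the 31053 features in the deposited matrices, taken by gene symbol, and all 10 had UMIs (unique molecular identifiers, each standing for 1 captured transcript) in all 4 libraries. The cells were the stromal vascular fraction of inguinal white adipose tissue, that is, what is left of a digested fat pad once the adipocytes are gone. Tissue of 8 iAdFASNKO mice was pooled, and so was tissue of 7 control mice, described as C57BL/6. The line name is known to denote an inducible loss of fatty acid synthase (Fasn) in adipocytes. The labels give no age, sex, inducing agent or driver of the deletion, and no background strain for the iAdFASNKO mice. Magnetic beads divided each pool into a lineage-positive (Lin+) and a lineage-negative (Lin-) fraction, so there were 4 groups of 1 library each, namely Lin+ iAdFASNKO, Lin+ control, Lin- iAdFASNKO and Lin- control.

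MHC class II molecules carry peptides of engulfed proteins to the cell surface, where CD4+ T cells read them. H2-Aa and H2-Ab1 encode the alpha and beta chains of the I-A molecule, and H2-Eb1 encodes the beta chain of the I-E molecule, whose alpha chain C57BL/6 mice are known not to make. Cd74 encodes the invariant chain, which fills the peptide groove and guides new molecules to the endosome. There H2-DM, made of H2-DMa and of H2-DMb1 or H2-DMb2, exchanges the invariant chain remnant for a peptide, and H2-O, made of H2-Oa and H2-Ob, inhibits H2-DM. Ciita encodes the transactivator that switches the set on. Dendritic cells, macrophages and B cells are the cells known to carry the pathway, in fat as in other tissues.

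In the GENCODE M21 annotation of GRCm38, 8 of the 10 genes lie within 224 kb of chromosome 17. From left to right these are H2-Oa (34092340 to 34095234), H2-DMa (34119541 to 34139101), H2-DMb2 (34143307 to 34151555), H2-DMb1 (34153072 to 34160230), H2-Ob (34238903 to 34254414), H2-Ab1 (34257689 to 34269419), H2-Aa (34282744 to 34287823, the single one on the minus strand) and H2-Eb1 (34305867 to 34316674). Cd74 is on chromosome 18 (60803848 to 60812652) and Ciita on chromosome 16 (10480059 to 10528418), both on the plus strand. Annotated genes on the opposite strand overlap H2-DMa (Brd2, CR974462.4 and Gm20493), H2-Oa (BC051537), H2-Eb1 (Gm20513) and Ciita (Dexi). On the same strand CR974462.3 overlaps H2-DMa and Mir5107 overlaps Cd74. The strand setting of the counting is not given in the sources used here. The part of the overlapping genes in the counts was not tested.

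H2-DMb1 and H2-DMb2 are near copies. Their longest coding transcripts were identical at 94.6% of 1219 aligned bases, and their last 500 bases, where 3' tags fall, at 89.2% of 334 aligned bases. None of the 451 stretches of 50 bases in that end of H2-DMb2 occurred unchanged in the H2-DMb1 transcript, but the split of UMIs between the copies remains less certain than the other counts.

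Promoters are shown here because 8 members sit side by side in the genome yet were not expressed in the same proportions. Class II promoters are known for an X box and a Y box, through which RFX and NF-Y hold Ciita in place. RefSeq promoter sequences of GRCm38.p6 (250 bases before to 50 after each start) were given for 7 of the 10 members. Both strands were searched for the Y box core ATTGG and for AAC followed after any 3 bases by TGANG, a pattern for the X box that was chosen after these promoters had been read. A promoter counted as holding the pair where ATTGG began 11 to 40 bases after the start of the other pattern on the same strand, and the patterns then do not overlap. H2-Eb1, H2-DMb1, H2-DMb2 and H2-Ob held the pair, while of all 32851 promoters 34 did (0.103%). ATTGG alone occurred in 37.4% of all promoters and the X box pattern alone in 2.88%. The 100 bases from 130 to 31 before the start are given 5′ to 3′ for H2-Aa (minus strand, chr17:34287854-34287953), H2-Eb1 (plus strand, chr17:34305737-34305836), H2-DMb2 (plus strand, chr17:34145119-34145218) and H2-Ob (plus strand, chr17:34238775-34238874), with matches of both patterns on the strand shown in capitals. The closing ccaat of H2-Eb1 is ATTGG on the other strand and is left in lower case.
H2-Aa: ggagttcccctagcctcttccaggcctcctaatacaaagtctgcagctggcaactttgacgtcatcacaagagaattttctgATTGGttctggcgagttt
H2-Eb1: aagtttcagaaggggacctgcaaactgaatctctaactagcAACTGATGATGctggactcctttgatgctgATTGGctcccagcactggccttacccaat
H2-DMb2: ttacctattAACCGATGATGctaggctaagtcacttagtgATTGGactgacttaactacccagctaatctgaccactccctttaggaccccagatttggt
H2-Ob: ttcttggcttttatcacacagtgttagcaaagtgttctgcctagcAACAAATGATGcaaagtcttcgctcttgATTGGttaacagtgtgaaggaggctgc
In H2-DMb1 the X box letters were AACTGATGATG, with ATTGG 31 bases further on, the same distance as in H2-DMb2. H2-Aa, H2-Oa and 1 start of H2-DMa held ATTGG without the X box pattern. In H2-Aa the letters AAC and TGACG stand upstream of ATTGG with fewer than 3 bases between them, which the pattern does not match. A missing match therefore does not show that a promoter lacks an X box. These are matches of letters and not sites shown to be used.

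After filtering and removal of called doublets, 4425 and 2888 cells were retained in Lin+ (iAdFASNKO, control) and 4314 and 3074 in Lin-, at median depths of 3302, 5359, 4150.5 and 9116 UMIs per cell. Between 88.3% and 92.6% of the cells of a library were assigned to a class by 8 marker genes per class, none of them a class II gene. All 8 markers of the B-cell-like, T-cell-like, macrophage-like, neutrophil-like, progenitor-like and blood-endothelial-like classes had UMIs in at least 20% of the cells so named. In type-1-dendritic-like, type-2-dendritic-like and monocyte-like cells 7 of 8 did, and in epithelial-like cells 6 of 8. In ILC2-like (type 2 innate lymphoid) and smooth-muscle-or-pericyte-like cells 5 of 8 did. The type-2-dendritic marker Clec4a4 was found in 0% of the cells so named. Any pair of libraries shared 57 to 107 barcode sequences. Each group is 1 library of pooled mice, so no difference between genotypes was tested. Intervals below are 95% intervals for counting error alone and say nothing of differences between mice.

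The 4 most abundant members, H2-Aa, H2-Ab1, H2-Eb1 and Cd74, were summed as the core class II level, scaled to the class's total UMIs (CPM). Type-2-dendritic-like cells had the highest level of all classes in Lin+, at 60667 CPM (59101 to 62264, 11 cells) in iAdFASNKO and 62076 CPM (60698 to 63477, 16 cells) in control. Macrophage-like cells reached 23545 CPM (22944 to 24158, 54 cells) in iAdFASNKO and 26101 CPM (25648 to 26560, 95 cells) in control. B-cell-like cells reached 22909 CPM (22768 to 23050, 1334 cells) in iAdFASNKO and 22692 CPM (22367 to 23021, 332 cells) in control. So the order was type-2-dendritic-like, macrophage-like, B-cell-like in both Lin+ libraries, but the intervals of macrophage-like and B-cell-like cells overlapped in iAdFASNKO and not in control, and with TMM scaling factors B-cell-like cells came before macrophage-like cells in iAdFASNKO (log2 -0.10). Type-1-dendritic-like cells stood between the first and second of these in Lin+ control, at 36448 CPM (12 cells), while the Lin+ iAdFASNKO library held 6 such cells, under the minimum of 10 cells for a level.

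**Figure D1:**
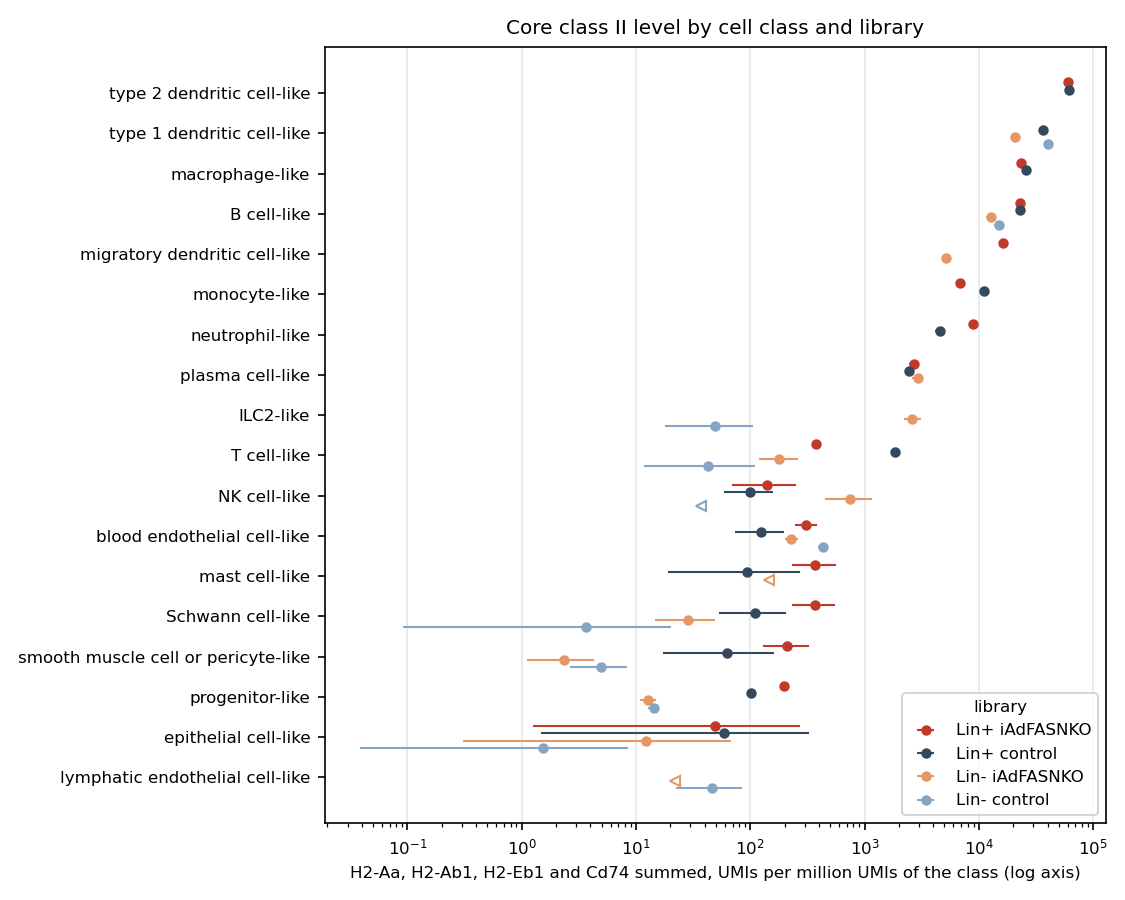
Core class II level (summed CPM of H2-Aa, H2-Ab1, H2-Eb1 and Cd74, log axis) in every class of at least 10 cells, with 1 point per library and 95% Poisson intervals for counting error; open triangles mark the limit that a count of 0 allows (3 UMIs). Type-2-dendritic-like cells are highest at 60667 and 62076 CPM in the Lin+ iAdFASNKO and control libraries, and smooth-muscle-or-pericyte-like cells of the Lin- libraries lie at 2.32 and 4.93 CPM.

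A step lower were monocyte-like, neutrophil-like and plasma-cell-like cells. Monocyte-like cells had 6786 CPM in the Lin+ iAdFASNKO library (20 cells) and 11188 CPM in the Lin+ control library (13 cells). At least 10 core UMIs were present in 30% of those iAdFASNKO cells and in 61.5% of those control cells. Neutrophil-like cells had 8971 CPM in iAdFASNKO (59 cells) and 4537 CPM in control (39 cells), with at least 10 core UMIs in 22% and 15.4% of them. Plasma-cell-like cells had 2683 CPM in Lin+ iAdFASNKO (14 cells), 2468 CPM in Lin+ control (12 cells) and 2909 CPM in Lin- iAdFASNKO (14 cells). Of these plasma-cell-like cells 13 of 14, 12 of 12 and 9 of 14 held at least 10 core UMIs. In B-cell-like and macrophage-like cells of Lin+ the share was 92.6% to 97.9%.

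In the Lin- libraries the highest level was that of type-1-dendritic-like cells, at 20538 CPM (19208 to 21935, 14 cells) in iAdFASNKO and 40466 CPM (38980 to 41993, 10 cells) in control. Their median depth was 2418 UMIs in iAdFASNKO and 8213 UMIs in control, and a cell count under 20 kept them out of the genotype ratios. H2-Aa was at 3519 CPM in iAdFASNKO and 8429 CPM in control, whereas Ciita was at 486 CPM and 463 CPM in the same cells. The few B-cell-like cells of Lin- had 12783 CPM in iAdFASNKO (20 cells) and 15097 CPM in control (14 cells). ILC2-like cells, type 2 innate lymphoid cells that are known to be able to carry class II, had 2615 CPM (2195 to 3091, 18 cells) in Lin- iAdFASNKO and 49.0 CPM (18 to 107, 32 cells) in Lin- control. In that iAdFASNKO class 3 cells held 97.1% of the core UMIs, and the NK-cell-like level of 745 CPM in Lin- iAdFASNKO came from 1 cell of 15.

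Classes that should lack the pathway set the background. Smooth-muscle-or-pericyte-like cells had 210 CPM in Lin+ iAdFASNKO (12 cells), 63.1 CPM in Lin+ control (10 cells), 2.32 CPM in Lin- iAdFASNKO (928 cells) and 4.93 CPM in Lin- control (312 cells). Schwann-cell-like cells had 366, 111, 28.3 and 3.65 CPM in the same order of libraries. In both Lin+ libraries, where B-cell-like cells were 30.1% (iAdFASNKO) and 11.5% (control) of all cells, a core UMI was found in 40% to 58.3% of the cells of these 2 classes, at median depths of 2264 to 6253 UMIs. In Lin- the share was 0.97% to 4.17%, at median depths of 1536 to 8018 UMIs. Levels of up to 366 CPM in Lin+ iAdFASNKO and 111 CPM in Lin+ control were thus found in cells that should not express these genes, and values in that range are read here as background. NK-cell-like, mast-cell-like, epithelial-like, progenitor-like and Lin+ blood-endothelial-like cells, at 49.2 to 370 CPM in Lin+ iAdFASNKO and 58.5 to 124 CPM in Lin+ control, all fell in that range or had intervals that overlapped it. The interval of T-cell-like cells also overlapped it in Lin+ iAdFASNKO, at 372 CPM (352 to 393), but not in Lin+ control, at 1852 CPM.

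**Figure D2:**
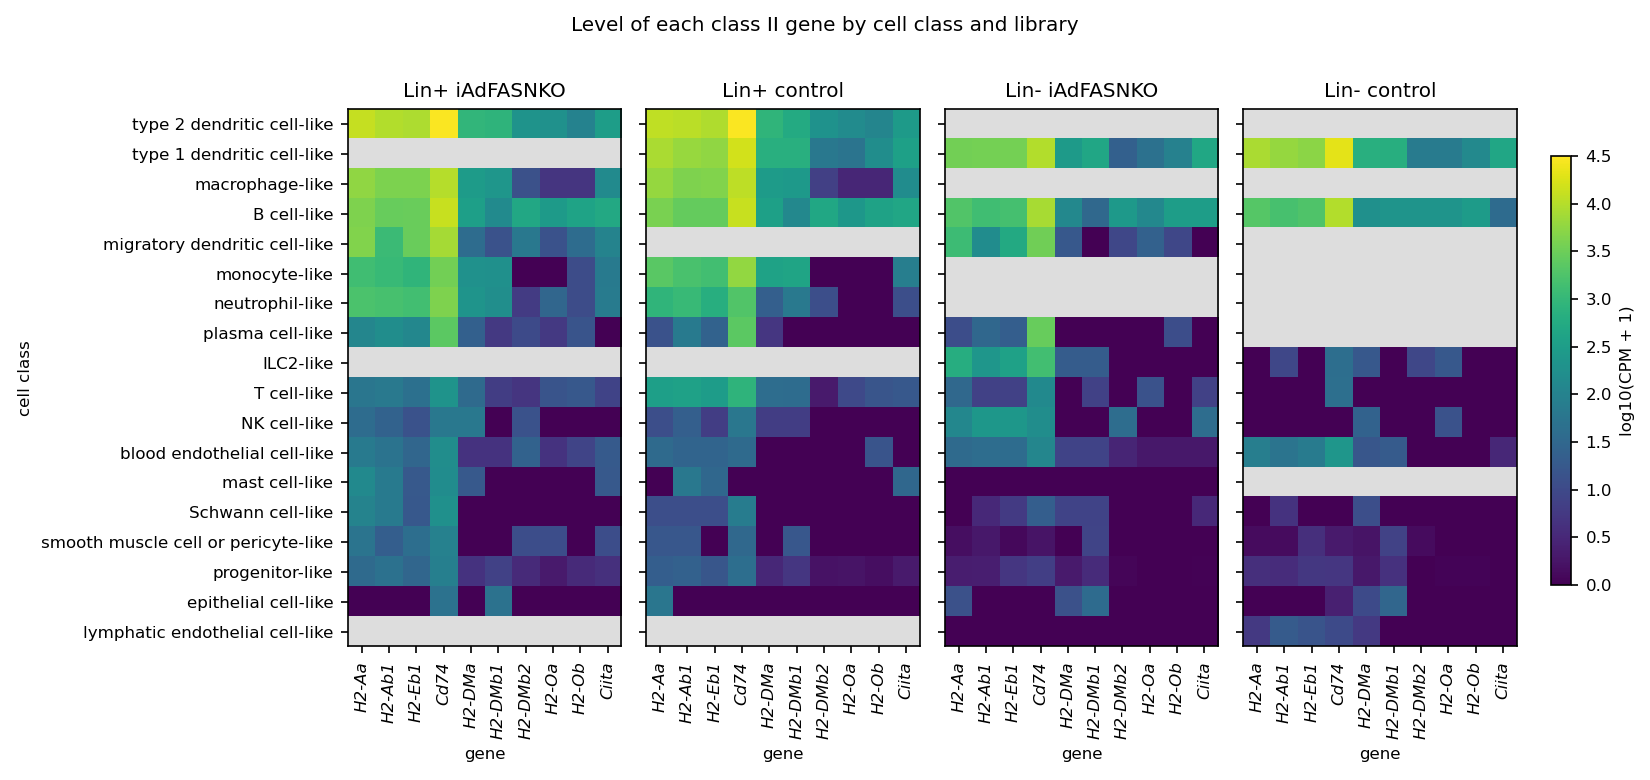
Level of each of the 10 genes, as log10(CPM + 1), in every class (down the page) and library (4 panels, iAdFASNKO left of control within a fraction); grey marks classes with fewer than 10 cells. H2-Oa, H2-Ob and H2-DMb2 are high in B-cell-like cells (239 to 507 CPM in Lin+) and at 2.06 to 12.1 CPM in macrophage-like cells.

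The chains of the I-A molecule were in similar proportions in B-cell-like, macrophage-like and most dendritic-like cells. Numbers of UMIs of different genes depend on how well each 3' end is captured, so the shares that follow are compared between classes and not read as amounts of protein. H2-Ab1 made up 40.3% of the summed H2-Aa and H2-Ab1 UMIs of B-cell-like cells in Lin+ iAdFASNKO and 41.7% in Lin+ control. The same share was 42.1% and 41.9% in macrophage-like cells and 43.3% and 47.5% in type-2-dendritic-like cells (iAdFASNKO and control). In type-1-dendritic-like cells of Lin- it was 50.8% (45.1 to 56.5, 14 cells) in iAdFASNKO and 42.6% (39.6 to 45.7, 10 cells) in control, and in those of Lin+ control it was 43.1%. Migratory-dendritic-like cells, named from Ccr7, Fscn1 and 6 other markers, stood apart. H2-Ab1 made up 20.6% (16.9 to 24.7, 90 of 437 UMIs) in Lin+ iAdFASNKO and 11.2% (6.91 to 17, 19 of 169 UMIs) in Lin- iAdFASNKO, both intervals lying under those of B-cell-like, macrophage-like and other dendritic-like cells in every library measured.

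In those migratory cells the H2-DM genes were also scarce. The 13 cells of Lin+ iAdFASNKO had 4416 CPM of H2-Aa, 2914 CPM of H2-Eb1 and 7801 CPM of Cd74, where B-cell-like cells of that library had 4181, 2910 and 12992 CPM. H2-Ab1 was at 1145 CPM in them, H2-DMa at 38.2 CPM and H2-DMb1 at 12.7 CPM. The 38 cells of Lin- iAdFASNKO had 1204 CPM of H2-Aa, 530 CPM of H2-Eb1, 3284 CPM of Cd74, 152.5 CPM of H2-Ab1, 16.1 CPM of H2-DMa and no UMI of H2-DMb1 or Ciita, where 3 UMIs would be 24.1 CPM. In type-2-dendritic-like cells of Lin+, by contrast, H2-DMa had 916 CPM in iAdFASNKO and 870 CPM in control, and H2-DMb1 had 842 CPM in iAdFASNKO and 564 CPM in control. The control libraries held 6 (Lin+) and 4 (Lin-) migratory-dendritic-like cells, too few for a level, so the pattern was measured in the iAdFASNKO libraries and was not compared by genotype.

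Cd74 took a different share of the core in plasma-cell-like cells. It made up 85.5% (82.4 to 88.2) of their core UMIs in Lin+ iAdFASNKO, 95.8% (93.8 to 97.2) in Lin+ control and 97.8% (95.4 to 99.2) in Lin- iAdFASNKO. In B-cell-like cells it made up 56.7% and 58.7% in Lin+ (iAdFASNKO, control) and 63.6% and 63.9% in Lin-. In macrophage-like cells Cd74 made up 41.9% and 43.6% in the Lin+ iAdFASNKO and control libraries. Plasma-cell-like cells thus had Cd74 at 2294 CPM, 2363 CPM and 2846 CPM in these 3 libraries beside H2-Aa at 113 CPM, 12.6 CPM and 10.4 CPM. No Ciita UMI was found in plasma-cell-like cells of any of these libraries, which allows up to 13.6 CPM, 12.5 CPM and 31.3 CPM.

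The chaperone and its inhibitor divided B-cell-like cells from the myeloid classes. H2-DMb2 made up 78.4% (76.8 to 79.9) of the summed H2-DMb1 and H2-DMb2 UMIs of B-cell-like cells in Lin+ iAdFASNKO and 79.3% (75.4 to 82.8) in Lin+ control. In type-2-dendritic-like cells it made up 19.4% (12.1 to 28.6) in iAdFASNKO and 25.5% (17.1 to 35.6) in control. In macrophage-like cells it made up 5% (3 of 60 UMIs) in iAdFASNKO and 2.26% (3 of 133 UMIs) in control. The near copies were thus used in opposite proportions by B-cell-like and macrophage-like cells, while the partner H2-DMa was at 350 and 363 CPM in B-cell-like and 299 and 297 CPM in macrophage-like cells of the Lin+ iAdFASNKO and control libraries.

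H2-O followed the same division. H2-Oa was at 279 CPM in B-cell-like cells of Lin+ iAdFASNKO and 239 CPM in Lin+ control, and H2-Ob was at 411 CPM in iAdFASNKO and 392.1 CPM in control. In macrophage-like cells each of these genes had 1 UMI in Lin+ iAdFASNKO and 1 in Lin+ control. Of all UMIs of H2-O and H2-DM together, the inhibitor's genes took 40.9% (39.8 to 42.0) and 39.6% (36.9 to 42.3) in B-cell-like cells of the Lin+ iAdFASNKO and control libraries. They took 1.47% (0.179 to 5.21) in iAdFASNKO and 0.717% (0.0869 to 2.57) in control macrophage-like cells. Type-2-dendritic-like cells were between these, at 12.8% in iAdFASNKO and 13.7% in control, as were type-1-dendritic-like cells of Lin- at 15.4% in iAdFASNKO and 12.4% in control. Monocyte-like cells held 1 H2-O UMI beside 37 of H2-DM in iAdFASNKO and none beside 60 in control.

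Ciita, the transactivator, did not rank the classes in the same order as its targets. It was at 509 CPM in iAdFASNKO and 456 CPM in control B-cell-like cells of Lin+, and at 320 and 282 CPM in type-2-dendritic-like cells, whose core level was over 2 times higher. Macrophage-like cells had 142 CPM in iAdFASNKO and 155 CPM in control. Monocyte-like cells had 70.6 CPM in iAdFASNKO and 81.8 CPM in control. Ciita UMIs come from the 3' end and cannot show which of the gene's promoters was in use.

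**Figure D3:**
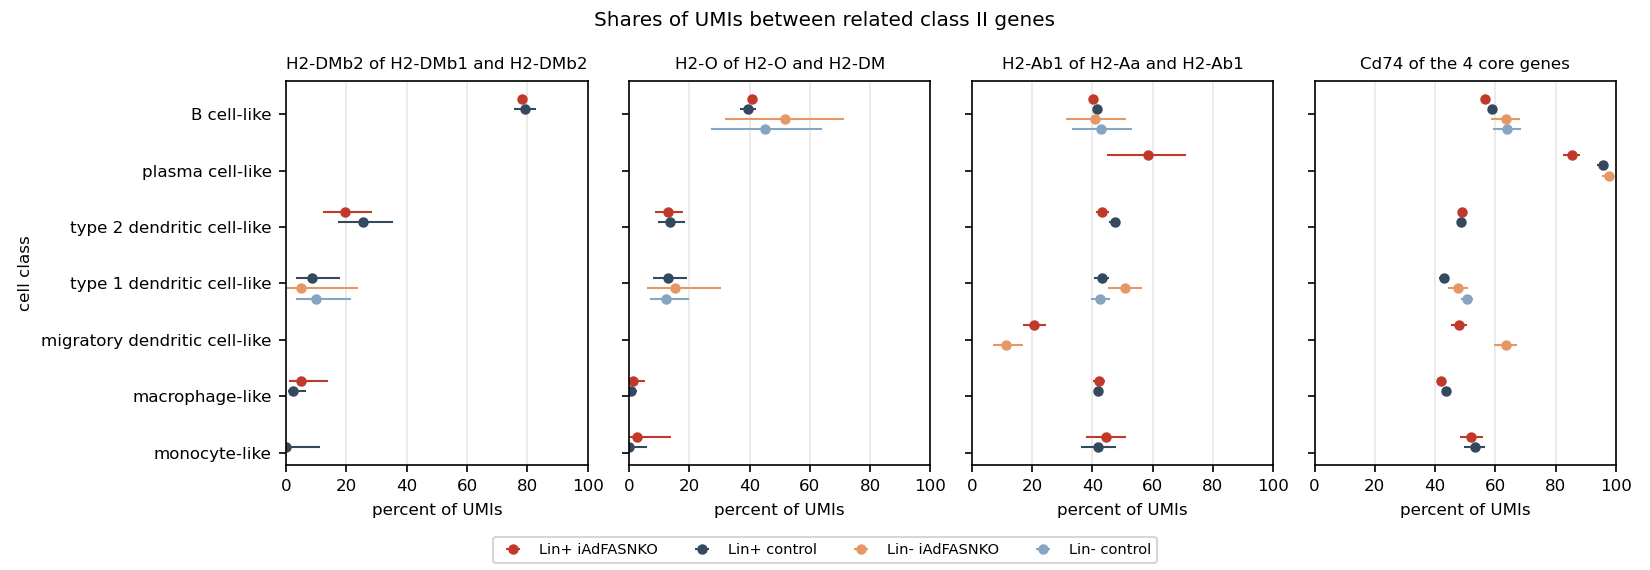
Share of UMIs between related genes in presenting classes, by library, with 95% Clopper-Pearson intervals for counting error; a missing point means fewer than 20 UMIs. H2-DMb2 takes 78.4% and 79.3% in B-cell-like cells and 5% and 2.26% in macrophage-like cells of the Lin+ iAdFASNKO and control libraries, and H2-Ab1 is lowest in migratory-dendritic-like cells at 20.6% and 11.2%.

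Macrophage-like cells also varied among themselves. Those with UMIs of at least 2 of Lyve1, Cd209f, Folr2 and Timd4, genes known from tissue-resident macrophages, had a core level of 22099 CPM (21392 to 22823, 29 cells) in Lin+ iAdFASNKO and 25635 CPM (25050 to 26231, 53 cells) in Lin+ control. Those with none of the 4 had 26314 CPM (25106 to 27564, 20 cells) in iAdFASNKO and 34921 CPM (33610 to 36271, 21 cells) in control. The summed level was thus lower in cells with at least 2 resident markers than in cells with none in both libraries, while the median over single cells was lower in iAdFASNKO and slightly higher in control. That median was 22857 CPM (at least 2) and 26653 CPM (none) in iAdFASNKO, and 27190 CPM (at least 2) and 26341 CPM (none) in control. Of the core UMIs of the 21 control cells with none, 1 cell held 24.6%. Cells with none were also shallower, with median depths of 2056 UMIs in iAdFASNKO and 2568 UMIs in control, against 5386 and 5315 UMIs in cells with at least 2. Control cells with exactly 1 marker had 21722 CPM (20909 to 22558, 21 cells). The spread between single cells was wide, and the middle 50% of all macrophage-like cells ran from 11631 to 37482 CPM in iAdFASNKO and from 13236 to 36925 CPM in control.

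The genotypes were compared within a fraction for classes with at least 20 cells in both libraries. A gene counted as higher or lower in iAdFASNKO where both libraries together held at least 20 of its UMIs, the CPM ratio of iAdFASNKO over control was at least 1.5 or at most 1/1.5 and its interval left out 1. In the classes and fractions not described here at most 2 members had enough UMIs. The counts below describe these libraries and carry no p-value.

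In B-cell-like cells the members differed little between the libraries. H2-Aa had 4181 CPM in Lin+ iAdFASNKO and 3882 CPM in Lin+ control, a ratio of 1.08 (1.04 to 1.12). H2-Ab1 had 2825 and 2778 CPM (ratio 1.02, 0.972 to 1.06) and H2-Eb1 had 2910 and 2708 CPM (ratio 1.07, 1.03 to 1.12) in the iAdFASNKO and control libraries. Cd74 had 12992 CPM in iAdFASNKO and 13324 CPM in control, a ratio of 0.975 (0.955 to 0.995). All 10 members had enough UMIs and 0 of 10 passed the rule, where 4.97% of 9192 features did. Their ratios ran from 0.964 (H2-DMa) to 1.16 (H2-Oa), with a median log2 ratio of 0.10 against -0.01 over all features tested. The core ratio was 1.01 (0.994 to 1.03). With a stricter cell filter H2-DMb1 passed the rule, at a log2 ratio of 0.62 against 0.17. The level per cell was close too, with a median of 22975 CPM over iAdFASNKO cells and 22930 CPM over control cells.

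Macrophage-like cells gave a slightly lower core level in Lin+ iAdFASNKO, with a ratio of 0.902 (0.874 to 0.931). H2-Aa had 5586 CPM in iAdFASNKO and 6025 CPM in control, and Cd74 had 9870 CPM in iAdFASNKO and 11373 CPM in control, the lowest ratio of the core genes at 0.868 (0.827 to 0.910). H2-DMa had 299 and 297 CPM (ratio 1.01, 0.751 to 1.34), and Ciita had 142 and 155 CPM (ratio 0.915, 0.594 to 1.38) in iAdFASNKO and control. Of the 7 members with enough UMIs 0 passed the rule, where 10.2% of 4956 features did (7.34% were lower), and H2-DMb2, H2-Oa and H2-Ob were too low to compare. The median log2 ratio of the 7 was -0.12 against -0.13 over all features tested, so the members' median was close to that of all genes of these cells. After division by the median ratio of all genes the log2 core ratio was -0.02.

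In T-cell-like cells the libraries differed, and few cells held most of the core UMIs. The core level in Lin+ was 372 CPM in iAdFASNKO (733 cells) and 1852 CPM in control (217 cells), a ratio of 0.201 (0.187 to 0.216). The interval of the iAdFASNKO level (352 to 393) overlapped the background range of that library. The ratio thus sets a level at the edge of background against the control level. Of 9 members with enough UMIs 6 were lower in iAdFASNKO, namely H2-Aa, H2-Ab1, H2-Eb1, Cd74, H2-DMb1 and Ciita, where 8.21% of 9255 features were lower. Here 9 control cells with 10 or more core UMIs held 94.3% of the core UMIs of their class, and 11 such iAdFASNKO cells held 55.2%. Without them the level was 173 CPM in iAdFASNKO and 119 CPM in control, a log2 ratio of 0.54 (0.23 to 0.87), and lay in or near the background range of the Lin+ libraries. Such cells are picked by their own core UMIs, at a fixed number that deeper cells reach more easily, so levels without them are a description and do not locate the difference. Their median depth was 9172 UMIs in iAdFASNKO and 11036 UMIs in control, against 3929 and 3274 UMIs in the other T-cell-like cells. A macrophage marker had a UMI in 18.2% of these iAdFASNKO cells and 44.4% of these control cells, against 3.19% and 3.37% of the others. A B cell marker had a UMI in 54.5% of these iAdFASNKO and 33.3% of these control cells, against 20.9% and 3.85% of the others. Igkc, a B cell gene, was at 424 CPM in these iAdFASNKO cells, against 143 CPM in the others. In control it was lower in these cells, at 97.1 CPM against 117 CPM. Ighm was at 544 against 325 CPM in iAdFASNKO and at 252 against 220 CPM in control. Lyz2, a myeloid lysozyme gene, was at 384 CPM in the iAdFASNKO and 165 CPM in the control cells of this kind, against 18.5 and 14.8 CPM in the others. Whether these cells are mixed captures was not tested.

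H2-DMa behaved otherwise in T-cell-like cells. It had 34.5 CPM in Lin+ iAdFASNKO and 39.5 CPM in Lin+ control, a ratio of 0.875 (0.598 to 1.31). H2-Oa had 13.8 CPM in iAdFASNKO and 8.77 CPM in control (ratio 1.57, 0.738 to 3.85). H2-Ob had 16.7 CPM in iAdFASNKO and 14.3 CPM in control (ratio 1.17, 0.634 to 2.33). None of these genes passed the rule, so the values per core UMI that follow also reflect the difference in the core. Over all T-cell-like cells there were 9.27 H2-DMa UMIs per 100 core UMIs (7.62 to 11.2) in iAdFASNKO and 2.13 (1.49 to 2.96) in control, beside 1.53 and 1.60 in B-cell-like cells of these libraries. H2-Oa was at 3.71 per 100 in iAdFASNKO and 0.474 in control, and H2-Ob at 4.48 in iAdFASNKO and 0.770 in control. In B-cell-like cells H2-Oa was at 1.22 and 1.06, and H2-Ob at 1.79 and 1.73. Relative to the core, H2-Oa and H2-Ob were thus higher than in B-cell-like cells in iAdFASNKO and lower in control, where 9 cells held 94.3% of the core UMIs. The part of the genes that overlap H2-DMa and H2-Oa in these values was not tested.

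Neutrophil-like cells had a core ratio of 1.98 (1.78 to 2.21) in Lin+. Of 6 members with enough UMIs 5 were higher in iAdFASNKO (H2-Aa, H2-Eb1, Cd74, H2-DMa and H2-DMb1), where 11.3% of 2057 features were higher. H2-DMa had 43 UMIs in iAdFASNKO and 2 in control, a ratio of 9.80 (2.55 to 83.5). Here 13 of 59 iAdFASNKO cells held 98% of the core UMIs and 6 of 39 control cells held 91.3%. Without them the level was 381 CPM in iAdFASNKO and 540 CPM in control, a log2 ratio of -0.50 whose interval (-1.21 to 0.21) holds 0. Their median depth was 5393 UMIs in iAdFASNKO and 4125 UMIs in control, against 1789 and 1590 UMIs in the others. A macrophage marker had a UMI in 53.8% of the 13 and 66.7% of the 6 cells, against 6.52% and 9.09% of the other iAdFASNKO and control cells. A B cell marker had one in 30.8% and 0%, against 10.9% and 6.06% of the others. Lyz2 was higher in the 13 cells (5514 against 1598 CPM) and lower in the 6 (1875 against 3448 CPM). Tyrobp, a myeloid gene, was lower in both (2005 against 3313 and 1915 against 3778 CPM). Whether these are mixed captures was not tested.

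**Figure D4:**
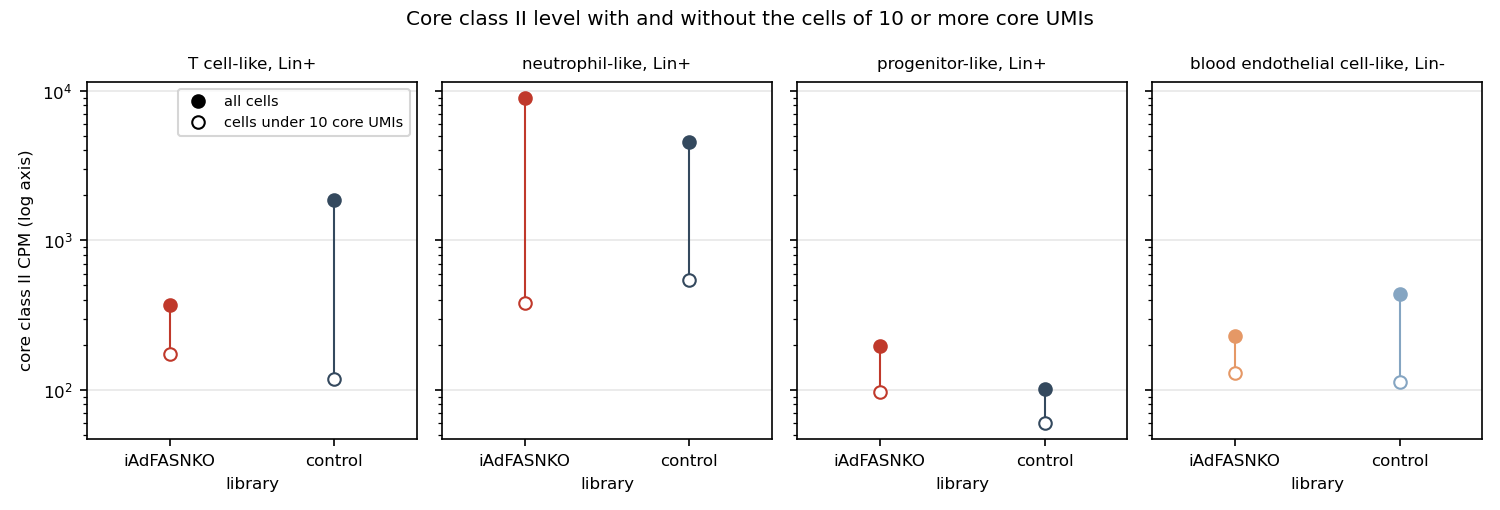
Core class II CPM (log axis) of 4 classes in the iAdFASNKO and control libraries, over all cells (filled) and over cells with fewer than 10 core UMIs (open). In T-cell-like cells the levels are 372 and 1852 CPM over all cells and 173 and 119 CPM without the high cells. Without them neutrophil-like cells are at 381 and 540 CPM and blood-endothelial-like cells of Lin- at 131 and 112 CPM, with intervals of the log2 ratio that hold 0.

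Blood-endothelial-like cells of Lin- stood above the background of their libraries. Their core level was 230 CPM (201 to 261, 159 cells) in iAdFASNKO and 435 CPM (394 to 480, 78 cells) in control, where smooth-muscle-or-pericyte-like cells had 2.32 and 4.93 CPM. A core UMI was present in 31.4% of the iAdFASNKO and 46.2% of the control cells at median depths of 4187 and 8537 UMIs. With every cell thinned to 1000 UMIs the shares were 13.6% of 151 iAdFASNKO cells and 23.7% of 75 control cells, against 0.189% of 911 and 0.425% of 309 smooth-muscle-or-pericyte-like cells.

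The core ratio in these endothelial-like cells was 0.528 (0.447 to 0.622). H2-Aa had 34.6 CPM in iAdFASNKO and 83.1 CPM in control (ratio 0.417, 0.271 to 0.629), and Cd74 had 117 CPM in iAdFASNKO and 227 CPM in control (ratio 0.515, 0.408 to 0.648). Of 6 members with enough UMIs 4 were lower (H2-Aa, H2-Eb1, Cd74 and H2-DMb1), where 7.03% of 8355 features were lower and 5.29% higher. Core UMIs were unevenly spread, and 6 of 159 iAdFASNKO cells (3.77%, 1.40 to 8.03) and 12 of 78 control cells (15.4%, 8.21 to 25.3) had 10 or more core UMIs, holding 48.7% and 79.2% of the class's core UMIs. That number is fixed, and the control cells of the class were deeper. Without them the level was 131 CPM in iAdFASNKO and 112 CPM in control, a log2 ratio of 0.22 (-0.19 to 0.64). In the 6 iAdFASNKO cells Igkc was at 29.7 CPM and Ighm, another B cell gene, at 19.8 CPM, while the myeloid genes Lyz2 and Tyrobp were at 0. In the 12 control cells these 4 genes had no UMI. A B cell marker had a UMI in 1 of the 6 and 1 of the 12 cells, and a macrophage marker in none. A dendritic cell or monocyte marker had a UMI in 83.3% of the 6 and 91.7% of the 12 cells (median depths 15154.5 and 9701 UMIs), against 47.7% and 68.2% of the others (4054 and 8369 UMIs). Whether these cells are mixed captures was not tested. In Lin+ the same class had 85 core UMIs in 47 iAdFASNKO cells and 18 in 21 control cells, a ratio of 2.48 (1.48 to 4.38), at a level of 309 and 124 CPM beside 366 and 111 CPM in Schwann-cell-like cells. Without 2 iAdFASNKO cells of 10 or more core UMIs the log2 ratio was 0.18, against 1.31 with them.

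Progenitor-like cells of Lin+ were near the background. In Lin+ their core level was 197 CPM in iAdFASNKO (1613 cells) and 101 CPM in control (1694 cells), a ratio of 1.94 (1.81 to 2.07). All 10 members had enough UMIs and 9 of 10 were higher in iAdFASNKO, where 10.1% of 12714 features were higher, with H2-Oa (12 and 11 UMIs) the exception. The Schwann-cell-like level was also higher in Lin+ iAdFASNKO, at a ratio of 3.31 (1.5 to 7.83), and B-cell-like cells made up 30.1% of the iAdFASNKO and 11.5% of the control library. A B cell marker had a UMI in 16.3% of the iAdFASNKO and 5.67% of the control progenitor-like cells, and the part of free transcripts in the ratio was not tested. In Lin- smooth-muscle-or-pericyte-like cells had 2.32 and 4.93 CPM and Schwann-cell-like cells 28.3 and 3.65 CPM (iAdFASNKO, control). The progenitor-like core level of Lin- was 12.8 CPM in iAdFASNKO (2224 cells) and 14.3 CPM in control (2192 cells), a ratio of 0.896 (0.739 to 1.08). There H2-Aa (17 and 70 UMIs, ratio 0.420) and H2-Ab1 (18 and 60 UMIs, ratio 0.518) were lower in iAdFASNKO, 2 of the 6 members with enough UMIs where 5.88% of 12947 features were lower. In that control class 1 cell held 51.9% of the core UMIs, and in that iAdFASNKO class 3 cells held 49.1%. In those 3 iAdFASNKO cells Igkc was at 85206 CPM and Ighm at 43683 CPM, against 15.7 and 8.30 CPM in the others. A B cell marker had a UMI in 2 of the 3. In the 1 control cell Igkc was at 0 CPM and Ighm at 50.3 CPM. Whether these cells are mixed captures was not tested. Without the top cell of each library the log2 core ratio was 0.52, against -0.16 with it.

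H2-DMb1 was also found outside the presenting classes. Smooth-muscle-or-pericyte-like cells of Lin- had 7.43 CPM of H2-DMb1 in iAdFASNKO (32 UMIs) and 6.82 CPM in control (18 UMIs), a ratio of 1.09 (0.593 to 2.06), where 10.5% of 10598 features passed the rule. These UMIs outnumbered the 10 and 13 core UMIs of the same cells. Epithelial-like cells of Lin- had 36.6 CPM in iAdFASNKO (3 UMIs, 13 cells) and 29.0 CPM in control (19 UMIs, 26 cells) beside 1 core UMI in each library. In macrophage-like cells there was about 1 H2-DMb1 UMI per 100 core UMIs, with 0.979 in iAdFASNKO and 1.03 in control. H2-DMb2 had 0 UMIs in iAdFASNKO and 1 in control in the same smooth-muscle-or-pericyte-like cells.

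**Figure D5:**
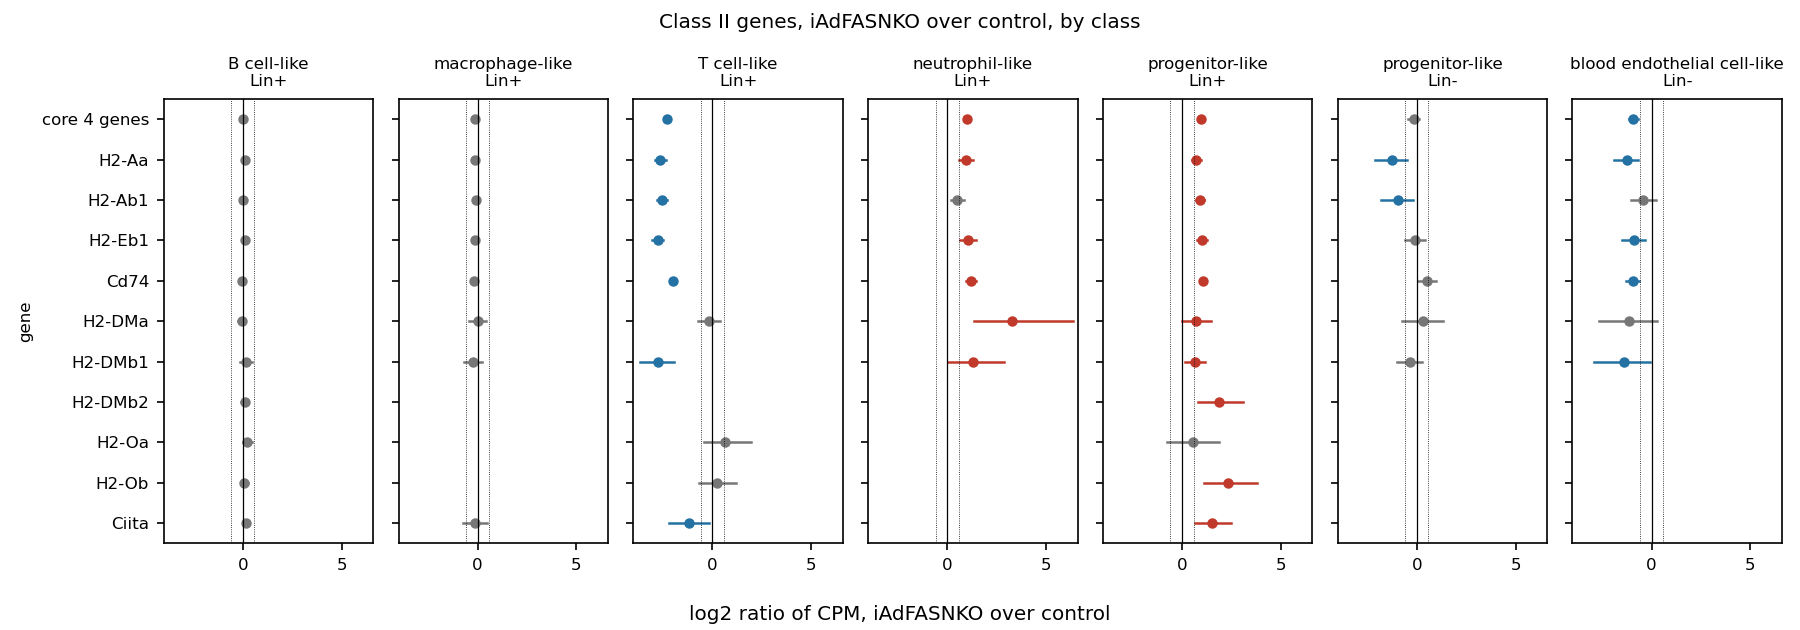
Log2 ratio of CPM, iAdFASNKO over control, for the core sum and each member with at least 20 UMIs over both libraries, in 7 classes and fractions, with 95% intervals for counting error; red is higher, blue lower and grey neither by the rule of 1.5-fold (dotted lines) and an interval without 0. All 10 members are grey in B-cell-like cells, while 6 of 9 are blue in T-cell-like and 5 of 6 red in neutrophil-like cells, where few cells hold most UMIs.

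Of 25 further genes of the pathway that the files list (regulators, endosomal proteases, co-stimulatory and interferon response genes), at most 5 passed the rule in any class and fraction. The share of all features that passed is given beside each count. In B-cell-like cells 2 of 21 passed (4.97%), where Cd40, a receptor for T cell help, was higher in iAdFASNKO (ratio 1.52, 1.10 to 2.15) while Cd86, a co-stimulatory ligand, was lower (ratio 0.651, 0.506 to 0.846). In macrophage-like cells 0 of 16 were higher and 3 were lower in iAdFASNKO (7.34% lower). Among the lower ones were Ctss, the protease that trims the invariant chain, at 934 CPM in iAdFASNKO and 1519 CPM in control (ratio 0.615, 0.528 to 0.714), and Ctsl, another endosomal protease (ratio 0.483, 0.380 to 0.610). In T-cell-like cells of Lin+ 4 of 21 were lower (Nfyc, Ctsl, Socs1 and Ifngr1) (8.21%) and 0 higher, with Ifngr1, a chain of the interferon gamma receptor, at 0.522 (0.451 to 0.606). In neutrophil-like cells 2 of 11 were higher (11.3%), namely Ctss (ratio 1.61) and Ctsl (2.34), and 1 was lower (12.6%), Irf1, an interferon response factor (0.235, 0.120 to 0.443). In progenitor-like cells of Lin+ 4 of 22 were higher (10.1%), namely Ctss, March1, Cd80 and Cd83, and 1 was lower (3.88%), Socs1, an inhibitor of interferon signalling (ratio 0.663, 0.539 to 0.813). There Ctss had 6.65 CPM in iAdFASNKO and 2.57 CPM in control, March1 2.12 and 0.474 CPM, and Cd83 3.97 and 1.96 CPM. In B-cell-like cells of Lin+ iAdFASNKO Ctss, March1 and Cd83 had 401, 243 and 297 CPM. The part of free transcripts in the progenitor-like values was not tested. In blood-endothelial-like cells of Lin- Ifngr1 was higher in iAdFASNKO (ratio 1.72, 1.31 to 2.28), the 1 of 15 genes that passed the rule (5.29% higher).

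Over 35 sums of class and library with at least 20 cells, 12083 features were ranked by how closely log2(CPM + 10) followed that of the core. No library held 20 type-1-dendritic-like or type-2-dendritic-like cells, so the classes of highest core level are not among these sums. The 8 closest non-members were Fgd2 (Pearson r 0.903), Cd83 (0.903), Ly86 (0.893), Pou2f2 (0.859), Ncf1 (0.857), Pld4 (0.854), Ctss (0.846) and March1 (0.841). Among the members, Cd74 (0.994) and H2-Aa (0.982) were closest and H2-Oa (0.585) was farthest. The sums share libraries, depth and free transcripts, so these values are a description of likeness.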

How the data were processed

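Droplet 3' libraries of 4 groups were analysed (1 pooled library each). The deposited values are raw UMI counts per gene and barcode, whole numbers that the authors did not normalize, per the file headers. The submitters' processing notes list Cell Ranger 3.1.0, Seurat 3.0 and mm10 (version 3.0.2 stands in the matrix header), and the annotation is not given in the sources used here. The genotype of a matrix was read from its name and the fraction from the barcode tag, per the labels. Cells needed 300 genes or more, 500 UMIs or more and a mitochondrial share of 10% or less. Doublets called with Scrublet (scanpy 1.11.5, expected rate 0.06; 0.935% to 2.22% of a library) were removed, which left 14701 of 18336 barcodes. A cell joined a class with UMIs of at least 3 of its 8 markers and 2 more than of any other class, and names ending in "-like" follow from these markers. Counts were summed per class and library and scaled to CPM. Intervals are Poisson (CPM), conditional binomial (ratios) and Clopper-Pearson (shares), all 95%, and the floor is 3 counts. The ratio rule was tested on Poisson counts simulated from the summed profiles of B-cell-like and macrophage-like cells of Lin+. These counts hold no spread between cells or mice. They cannot show how the rule behaves where few cells hold most UMIs. Level comparisons were repeated with edgeR 4.0.16 TMM factors. The members, markers, pathway list and most alternatives were chosen with earlier results of these data known. All 10 members are named, the other pathway genes are given by counts with examples that passed the rule (1 is not reported here), and the 8 genes most like the core. Total UMIs per library ran from 21622291 to 33016494.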

Additional observations from a re-analysis of the deposited data

Results flagged for a closer look

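The core class II ratio of iAdFASNKO over control passed the 1.5-fold rule in opposite directions in the fractions in 2 classes, and in neither was the difference between fractions tested, since each fraction is 1 library per genotype. In T-cell-like cells it was 0.201 in Lin+ and 4.21 in Lin-, the second from 28 UMIs in 74 iAdFASNKO cells and 4 UMIs in 27 control cells. In blood-endothelial-like cells it was 2.48 in Lin+ and 0.528 in Lin-. In progenitor-like cells it was 1.94 in Lin+ and 0.896 in Lin-, the second short of the rule.

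Cells that no class took held class II UMIs that enter no comparison above. Their core level was 9565 CPM in Lin+ iAdFASNKO and 20473 CPM in Lin+ control, and 1013 CPM in Lin- iAdFASNKO and 1768 CPM in Lin- control. They held 10.4% of all core UMIs of the Lin+ iAdFASNKO and 35% of the Lin+ control library, and 30.1% and 33.7% in Lin- iAdFASNKO and control. These UMIs are missing from the class levels.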

How the results depend on the processing

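No paired analysis was possible because each group is 1 pooled library and the labels give no replicate numbers. All values here are log2 core ratios of iAdFASNKO over control unless a gene is named. B-cell-like cells stayed between -0.0020 and 0.037 over 9 alternatives, the highest with the stricter cell filter (at least 500 genes and 1000 UMIs, at most 5% mitochondrial). H2-DMb2 in B-cell-like cells stayed between 0.042 and 0.24. T-cell-like cells (-2.31) gave -2.07 with the looser cell filter (200 genes, 300 UMIs, 20%), -4.04 with the stricter one, -0.82 with the stricter gate (4 markers, 3 more), -2.66 with the looser gate (2 markers, 1 more), -0.68 with classes from clusters, -1.57 as a mean over cells and -1.98 without the top cell. Macrophage-like cells (-0.15) gave -0.20 (stricter filter), -0.028 (stricter gate), -0.30 (looser gate), -0.31 (clusters), -0.066 (mean over cells) and -0.020 (divided by the median of all genes). The cluster named macrophage held 515 cells, and 52% of the 275 that markers assigned to a class were macrophage-like. A T cell cluster (59.2%) and a progenitor cluster (38.8%) were mixed too. Values from clusters thus cover mixed cells and do not repeat the same class. Neutrophil-like cells (0.98) gave 1.14 (stricter gate), 0.65 (looser gate), 0.79 (clusters), 0.27 (mean over cells) and 1.19 (without the top cell). Progenitor-like cells of Lin+ (0.96) gave 0.86 (looser filter), 0.72 (stricter filter), 1.31 (stricter gate), 1.41 (looser gate), 1.14 (clusters), 0.71 (doublets kept), 1.22 (without the top cell) and 0.83 (divided by the median). Blood-endothelial-like cells of Lin- (-0.92) gave -0.68 (stricter gate), -0.51 (clusters) and -1.34 (mean over cells). Progenitor-like cells of Lin- (-0.16) gave 0.90 (looser filter), -0.78 (stricter gate), 0.51 (clusters), 0.17 (mean over cells) and 0.52 (without the top cell). Leaving out cells of 10 or more core UMIs, a choice made after seeing the data, gave 0.54 (0.23 to 0.87) in T-cell-like cells, -0.50 (-1.21 to 0.21) in neutrophil-like cells and 0.22 (-0.19 to 0.64) in Lin- blood-endothelial-like cells, each of the opposite sign but with intervals that hold 0 in the last 2 classes. It gave 0.69 in Lin+ progenitor-like and 0.18 (-0.67 to 1.08) in Lin+ blood-endothelial-like cells. Of single genes, H2-Aa of neutrophil-like cells turned to -0.047 as a mean over cells, H2-Aa of Lin- progenitor-like cells to 0.17 (looser filter) and 0.56 (clusters), and H2-Ab1 of Lin- progenitor-like cells to 0.039 (clusters); the cause was not tested. With TMM factors the log2 level of macrophage-like over B-cell-like cells was -0.10 in Lin+ iAdFASNKO (0.04 by CPM) and 0.08 in Lin+ control (0.20 by CPM), so the order of these classes in iAdFASNKO depends on scaling. That of type-2-dendritic-like over B-cell-like cells was 1.22 in iAdFASNKO (1.41 by CPM) and 1.34 in control (1.45 by CPM).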
